A study of Mus musculus with 2 samples.

Results

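The 40 genes described here repair DNA or signal that it is damaged. They were taken by name from a fixed list of homologous recombination, Fanconi anaemia, mismatch repair, base excision, end-joining and damage kinase genes, and all 40 symbols were found among the 23282 rows of the deposited tables. The cells were wild-type naïve CD4+ T cells from spleens of young adult female C57BL/6 mice, activated with plate-bound anti-CD3ε and soluble anti-CD28 and cultured under Treg-inducing conditions, with TGF-β1, IL-2 and antibodies that block IFN-γ and IL-4. The control culture received DMSO, and the other received 10 μM Tubastatin A (TSA), an inhibitor of the deacetylase HDAC6 that is not to be confused with trichostatin A. RNA was taken on day 1, and 1 library was sequenced per condition, so that no difference below has a replicate check and the culture cannot be told apart from the treatment. Values come from the bulk culture, in which fewer cells expressing a gene and less RNA per cell cannot be told apart.

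A double-strand break is repaired either by end joining, in which the Ku proteins and XRCC4 seal the ends directly, or by homologous recombination, in which the ends are cut back and, with the help of BRCA2 and PALB2, the sister chromatid is copied. Because a sister chromatid is needed, homologous recombination works in S and G2 phase, and many of its genes are transcribed under the control of E2F factors in dividing cells. The Fanconi anaemia proteins unhook crosslinks between the DNA strands, mismatch and base excision enzymes replace single wrong bases, and the kinases ATM and ATR report damage to CHEK2 and CHEK1.

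Promoters were printed for the 3 genes that fell most in log2 change, for the 2 genes with an E2F motif that did so, and for Fanca, which rose, because repair genes are a textbook class of E2F targets. Each sequence runs 5′ to 3′ from 250 bases before to 50 bases after a transcription start of RefSeq on GRCm38.p6. Capitals mark the letters TTTCCCGC, TTTGGCGC, TTTCGCGC or TTTGCCGC (E2F motif), CCAAT (the box bound by the factor NF-Y) and, for the cell cycle homology region of late cell cycle genes, TTTGAA. Both strands were searched, each motif on its own, so that matches may overlap.
Brca1 (chr11:101551906-101552205, minus strand): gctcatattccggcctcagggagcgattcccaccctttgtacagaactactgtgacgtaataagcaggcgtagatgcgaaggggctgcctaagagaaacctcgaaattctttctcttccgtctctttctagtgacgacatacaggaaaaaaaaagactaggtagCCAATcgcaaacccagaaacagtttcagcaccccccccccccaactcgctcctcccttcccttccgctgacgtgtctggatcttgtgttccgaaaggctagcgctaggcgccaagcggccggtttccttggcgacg
Rad51ap1 (chr6:126939538-126939837, minus strand): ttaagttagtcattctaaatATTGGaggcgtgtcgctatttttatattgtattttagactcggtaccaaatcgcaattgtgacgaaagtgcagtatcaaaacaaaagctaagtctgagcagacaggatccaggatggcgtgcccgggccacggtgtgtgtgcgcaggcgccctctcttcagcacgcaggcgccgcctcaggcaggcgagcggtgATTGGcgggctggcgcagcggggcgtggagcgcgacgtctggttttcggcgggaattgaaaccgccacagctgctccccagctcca
Fancm (chr12:65075353-65075652, plus strand): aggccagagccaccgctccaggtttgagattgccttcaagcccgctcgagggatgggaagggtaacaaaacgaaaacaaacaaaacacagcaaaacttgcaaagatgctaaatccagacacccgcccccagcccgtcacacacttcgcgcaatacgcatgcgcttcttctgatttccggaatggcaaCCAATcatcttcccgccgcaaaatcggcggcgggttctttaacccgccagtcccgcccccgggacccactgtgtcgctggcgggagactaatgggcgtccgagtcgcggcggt
Topbp1 (chr9:103305077-103305376, plus strand): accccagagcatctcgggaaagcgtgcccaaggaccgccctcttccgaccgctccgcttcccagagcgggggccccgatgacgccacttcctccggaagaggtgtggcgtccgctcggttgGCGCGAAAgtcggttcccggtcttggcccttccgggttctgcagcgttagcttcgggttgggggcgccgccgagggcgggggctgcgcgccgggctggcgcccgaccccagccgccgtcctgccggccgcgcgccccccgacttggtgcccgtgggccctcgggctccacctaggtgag
Bard1 (chr1:71102923-71103222, minus strand): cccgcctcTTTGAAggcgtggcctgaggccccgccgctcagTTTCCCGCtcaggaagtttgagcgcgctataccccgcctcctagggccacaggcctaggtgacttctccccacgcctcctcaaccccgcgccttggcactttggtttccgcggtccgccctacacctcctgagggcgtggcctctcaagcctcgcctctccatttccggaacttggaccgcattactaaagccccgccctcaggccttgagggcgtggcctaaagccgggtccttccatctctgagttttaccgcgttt
Fanca (chr8:123318527-123318826, minus strand): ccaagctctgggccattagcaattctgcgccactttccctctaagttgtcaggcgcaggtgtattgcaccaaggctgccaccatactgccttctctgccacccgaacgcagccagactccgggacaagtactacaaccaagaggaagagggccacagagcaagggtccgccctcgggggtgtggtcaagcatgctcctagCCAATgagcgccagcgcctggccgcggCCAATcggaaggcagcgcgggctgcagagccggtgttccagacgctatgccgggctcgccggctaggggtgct

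An E2F motif as spelled above was present in 9 of 35 promoters of the genes described here (25.7%), against 3.97% of 11694 promoters of all genes tested and 2.26% of 32851 promoters in the table. A CCAAT box was present in 20 of the 35 (57.1%), against 37.8% of the promoters of genes tested. The mean GC content was 59.7% for the repair genes and 60.5% for the genes tested. Of the 35, 1 held TTTGAA, that of Bard1, against 11.9% among the genes tested. The promoter table had an entry for 33 of the 40 genes, and falls and rises are by the interval defined below. E2F motifs were found in 5 of 14 promoters of the genes that fell, 4 of 19 promoters of the genes whose interval included no change, and 0 of 2 promoters of the genes that rose. Rad51c has 2 entries, both with an E2F motif, and Rad54l has 2 entries that overlap in all but 1 base and count as 2 of the 14. Brca1, Rad51ap1 and Fancm, the 3 largest falls in log2 change, have no match to the E2F spellings searched, and each has a CCAAT box. Other spellings of an E2F site were not searched, so their promoters may still hold one. These are matches of letters, not bound sites.

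The values deposited are log2 of a normalized count plus 1, and a change is given as the TSA value less the control value on this scale. The reads behind them were recovered from the spacing of low values and gave 10845879 control and 10432095 TSA reads on genes. The 40 genes held 22194 control reads (0.205% of the library) and 20068 TSA reads (0.192%). Each gene had at least 53 reads in both libraries, and all 40 passed the filter of 10 reads in at least 1 library. A gene is said to have fallen or risen where the exact 95% interval of its change, computed from its reads, lay wholly on 1 side of 0. This interval covers counting error only and compares the libraries, not the conditions.

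**Figure D1:**
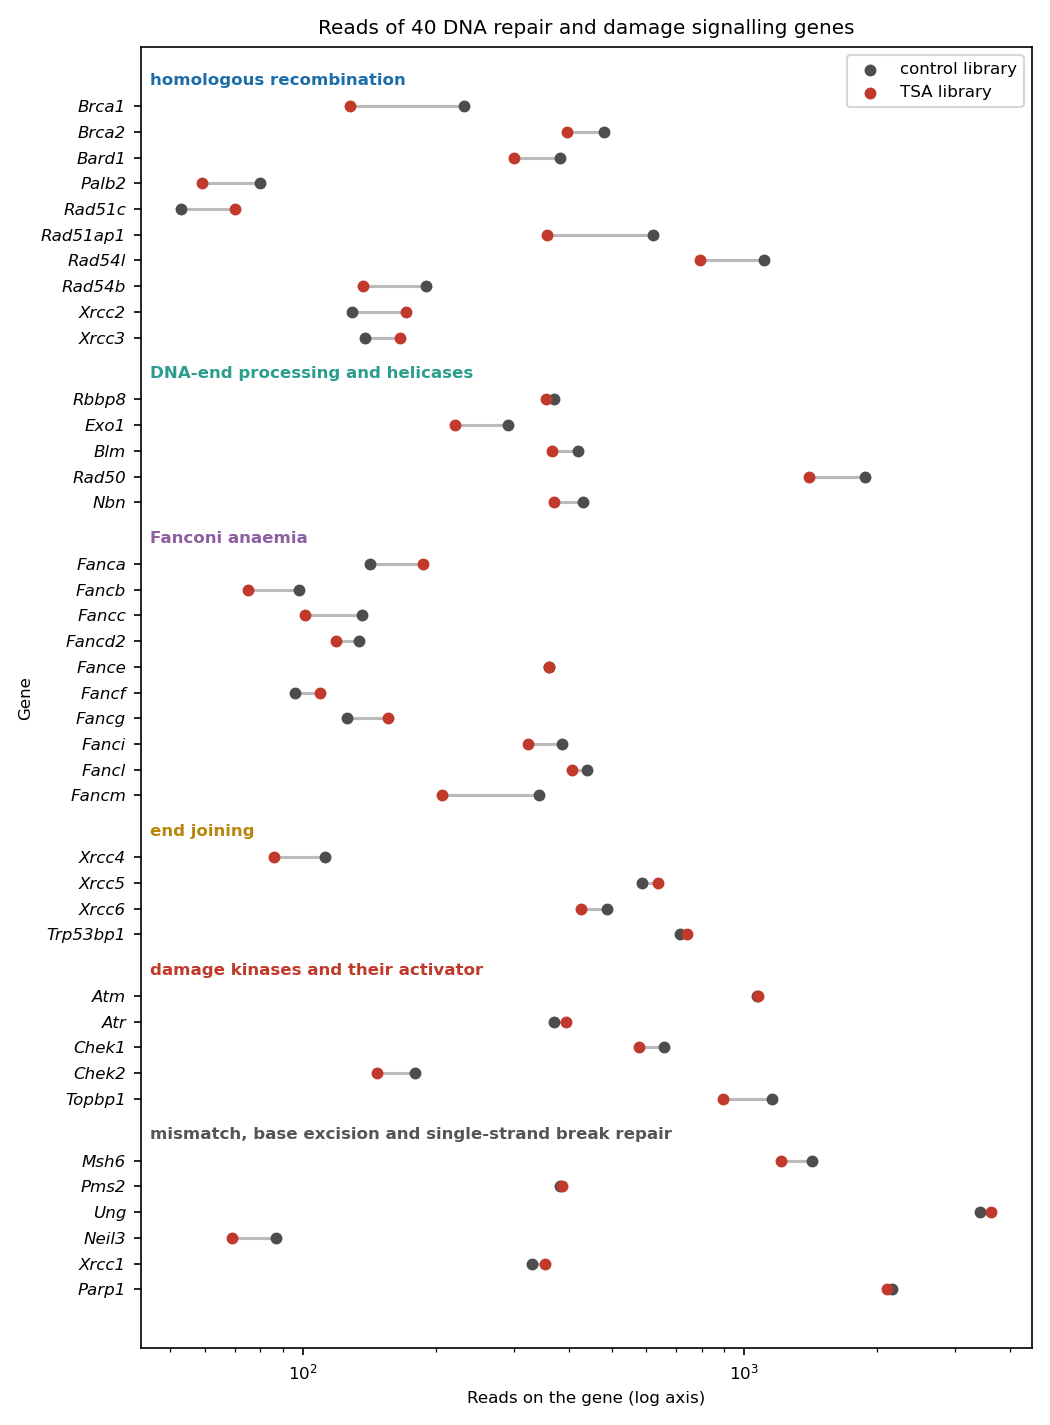
Reads on each of the 40 genes (x axis, log scale) in the control library (grey points) and the TSA library (red points), grouped by role, with a line joining the libraries. The red point lies left of the grey one for Brca1, Rad51ap1 and Fancm by the widest gaps, and right of it for Xrcc2 and Fanca, among others.

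Of the 40 genes, 17 fell, 3 rose and 20 had an interval that included no change. Among all 12164 genes tested, 28.0% fell and 28.1% rose by the same rule. For the 9399 genes whose normalized counts averaged 50 or more, these shares were 33.6% and 24.4%. Of the repair genes 42.5% fell, a larger share than either background, and 7.5% rose, a smaller share than either. The genes were chosen with earlier results of these data known, so these shares only describe the list, and their difference from the background was not tested. The median log2 change of the 40 genes was -0.21, against 0.015 for all genes tested and -0.040 for the 9399 genes. The changes were small: none of the 40 genes passed 2-fold in either direction, while 3.15% of the genes tested were lower and 11.5% higher by that much. Among the 9399 genes with more reads, 141 were lower and 279 higher past 2-fold. For 38 of the 40 genes the whole interval lay within 2-fold. Scaling the libraries by their total reads raised every change by 0.070, and 11 genes then fell and 5 rose. Fancc, Xrcc6, Nbn, Fanci, Blm and Chek1 lost the call of a fall with this scaling, and Xrcc5 and Fancg gained that of a rise.

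**Figure D2:**
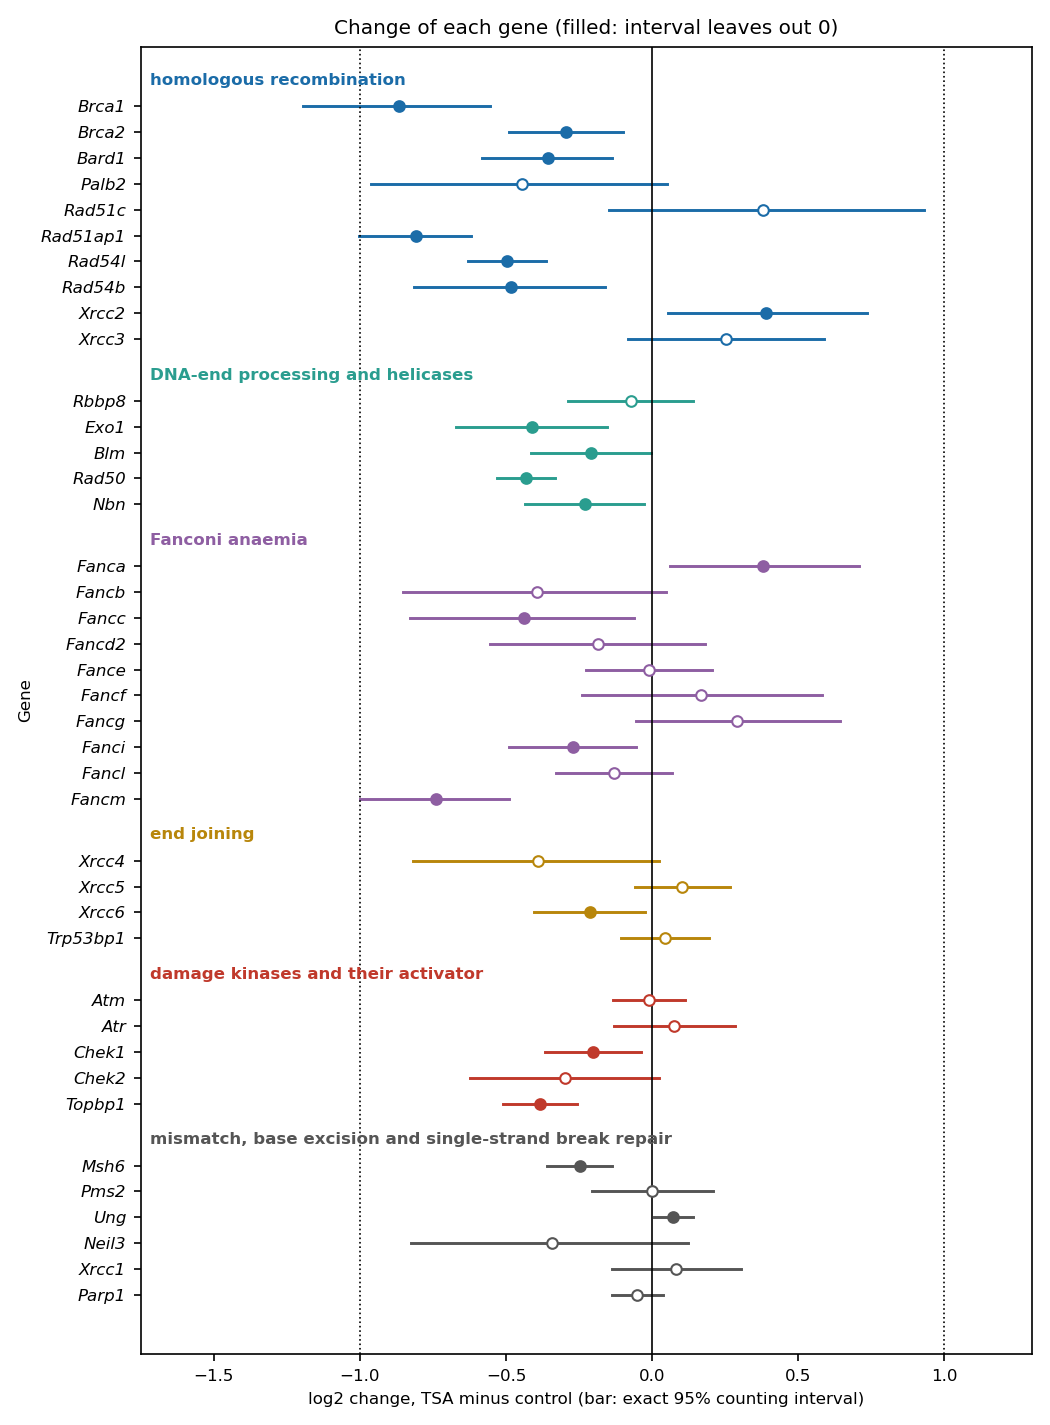
Change of each gene as the deposited TSA value minus the control value (x axis, log2), with the exact 95% counting interval as a bar, grouped by role. Filled points have an interval that leaves out 0, and dotted lines mark 2-fold. Of the 17 filled points below 0, 6 are homologous recombination genes, and Brca1 lies farthest from 0.

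Of the 10 homologous recombination genes, 6 fell and 1 rose, with a median log2 change of -0.40. Brca1, the scaffold that directs breaks to recombination, went from 232 control reads to 128 TSA reads. It was 1.82-fold lower, a log2 change of -0.87 (95% interval -1.195 to -0.555), and 501 of the 12164 genes tested had a lower change. Bard1 encodes the partner with which BRCA1 forms a ubiquitin ligase, and its reads went from 382 to 301, a log2 change of -0.36 (-0.58 to -0.14). Brca2, whose product acts on the resected end, had 481 and 396 reads, a log2 change of -0.29 (-0.49 to -0.10). Palb2, the bridge between BRCA1 and BRCA2, had only 80 and 59 reads, and its value of -0.45 had an interval of -0.96 to 0.050 that included no change. All 4 genes of this chain were lower in the TSA library, and Brca1 had the largest log2 difference of the 40 genes. The chain was put together after the values were seen. By any amount, 5910 of the 12164 genes tested were lower, and 5131 of the 9399 genes with more reads.

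Rad51ap1, Rad54l and Rad54b fell as well. Rad51ap1, which stimulates strand pairing, fell from 622 to 358 reads, 1.75-fold lower, with a log2 change of -0.81 (-1.003 to -0.62). Rad54l encodes the motor protein that drives strand invasion, and its reads fell from 1109 to 793, a log2 change of -0.50 (-0.63 to -0.36). Its relative Rad54b had 190 and 137 reads, a log2 change of -0.48 (-0.81 to -0.16). The last 500 bases of annotated Rad54l transcripts overlap exons of Lrrc41 on the opposite strand, and those of Rad54b overlap Fsbp on the same strand, and the part of these neighbours in the counts was not tested.

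The genes Xrcc2, Rad51c and Xrcc3, whose products work together in homologous recombination, had values on the other side of 0. Xrcc2 rose from 129 to 171 reads, a log2 change of 0.39 (0.054 to 0.73). Rad51c had 53 and 70 reads, a value of 0.38 with a wide interval of -0.15 to 0.93, and Xrcc3 had 138 and 166 reads, a value of 0.25 (-0.082 to 0.589). Of these 3, Xrcc2 alone passed the interval, and its lower bound lies close to 0. Related genes outside the 40 had lower values: Rad51b had 60 and 55 reads and Rad51d 278 and 242, both with intervals that included no change. The grouping into complexes here and below was made after the values were seen.

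Of the 5 DNA-end processing and helicase genes, 4 fell, and the median log2 change was -0.23. With total-read or upper-quartile scaling, 2 of the 5 (Rad50 and Exo1) fell. Rad50, the structural subunit of the complex that grips broken ends, fell from 1875 to 1404 reads, a log2 change of -0.43 (-0.53 to -0.33), which is the narrowest interval among the genes that fell. Nbn, the subunit that recruits ATM, had 431 and 371 reads, a log2 change of -0.23 (-0.43 to -0.027). Mre11a, the nuclease of the same complex and no member of the list, had 580 and 437 reads and a log2 change of -0.42. The nuclease gene Exo1, which cuts back ends over long distances and also serves mismatch repair, went from 291 to 221 reads, a log2 change of -0.41 (-0.67 to -0.15). Blm encodes the helicase that is mutated in Bloom syndrome, and its 419 and 366 reads gave -0.21 with an upper bound of -0.004, just short of no change. Rbbp8 (CtIP), which starts resection, differed least, with 371 and 356 reads and a log2 change of -0.073 (-0.29 to 0.14).

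The Fanconi anaemia genes spread over a wide range, from -0.74 to 0.38, with 3 of 10 fallen, 1 risen and a median of -0.16. With total-read scaling, 1 of the 10 (Fancm) fell and 2 (Fanca and Fancg) rose. Fancm, the translocase that brings the core complex to DNA, fell from 343 to 207 reads, 1.67-fold lower, with a log2 change of -0.74 (-0.999 to -0.49). Fanca went the other way, from 142 to 187 reads, a log2 change of 0.38 (0.060 to 0.71), and its end overlaps Zfp276 on the opposite strand. Fancg, whose product binds FANCA directly, had 126 and 156 reads and a value of 0.29 (-0.054 to 0.64). Faap20, the remaining subunit of this part of the core complex and no member of the list, had 268 and 378 reads and a log2 change of 0.48 (0.25 to 0.71). All 3 genes of the FANCA, FANCG and FAAP20 unit had higher values in the TSA library, but the interval of Fancg included no change. The unit was put together after the values were seen, and of the 12164 genes tested 6246 had a higher value.

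The unit that carries the ubiquitin ligase had lower values. Fancb had 98 and 75 reads, with a value of -0.395 (-0.854 to 0.049), and Fancl, the ligase itself, had 440 and 406 reads, with a value of -0.13 (-0.33 to 0.068). Neither passed the interval, whereas their partner Faap100, outside the 40 genes, fell from 491 to 237 reads, a log2 change of -1.06 (-1.295 to -0.84). In the third unit of the core complex, Fancc fell from 136 to 101 reads, a log2 change of -0.44 (-0.83 to -0.061). Its partners Fance (360 and 361 reads) and Fancf (96 and 109 reads) had intervals that included no change. Fanci, a target of the ligase, had 386 and 323 reads and a log2 change of -0.27 (-0.49 to -0.054), and its end overlaps Polg on the opposite strand. Fancd2, the other target, had 134 and 119 reads and a value of -0.18 (-0.55 to 0.18).

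Of the 5 damage kinase genes, including the activator Topbp1, 2 fell and none rose, and with total-read or upper-quartile scaling Topbp1 was the 1 that fell. The sensor kinase genes were close to level: Atm had 1070 and 1072 reads, a log2 change of -0.012 (-0.135 to 0.112), and Atr had 371 and 395 reads, 0.076 (-0.13 to 0.285). Chek1, the effector kinase of ATR, fell from 656 to 576 reads, a log2 change of -0.20 (-0.37 to -0.038), and Chek2, the effector of ATM, had 179 and 147 reads, a value of -0.30 (-0.62 to 0.025). Topbp1, whose product switches ATR on, fell most among them, with 1157 control and 896 TSA reads and a log2 change of -0.38 (-0.51 to -0.26). Clspn, which hands CHEK1 to ATR and is no member of the list, fell from 1483 to 737 reads, a log2 change of -1.02 (-1.15 to -0.895). Atrip, the partner of ATR and likewise outside the 40 genes, had 221 and 187 reads and a value of -0.25 (-0.54 to 0.032).

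End-joining genes had a median log2 change of -0.085, and 1 of the 4 (Xrcc6) passed the interval. With total-read scaling Xrcc6 no longer passed and Xrcc5 rose. Xrcc5, which encodes Ku80, had 587 and 637 reads and a value of 0.10 (-0.060 to 0.27), while Xrcc6, which encodes its partner Ku70, fell from 489 to 426 reads, a log2 change of -0.21 (-0.40 to -0.023). Xrcc4, the ligase cofactor, had 112 and 86 reads and a value of -0.39 (-0.82 to 0.023). Trp53bp1, whose product shields ends from resection and steers them to end joining, had 713 and 742 reads, a log2 change of 0.043 (-0.107 to 0.194).

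The 6 mismatch, base excision and single-strand break repair genes had the median nearest 0, at -0.025, with 1 fallen and 1 risen. Ung, the uracil glycosylase that also acts in antibody diversification, had the most reads of the 40 genes, 3417 and 3630. Its rise of 0.073 (0.005 to 0.141) passed the interval, with a lower bound close to no change. Parp1, the sensor of strand breaks, had 2155 and 2100 reads, with a value of -0.051 (-0.139 to 0.036), and Xrcc1, the scaffold it recruits, had 330 and 353 reads, with a value of 0.083 (-0.14 to 0.30). In mismatch repair, Msh6, a subunit of the heterodimer that finds mispaired bases, fell from 1424 to 1211 reads, a log2 change of -0.25 (-0.36 to -0.14), and its end overlaps Fbxo11 on the opposite strand. Pms2, which nicks the strand to be corrected, had 383 and 387 reads, a log2 change of 0.001 (-0.207 to 0.208). Neil3, a glycosylase of dividing cells, had 87 and 69 reads and a value of -0.34 (-0.83 to 0.12). The direction of 4 genes near 0 (Parp1, Atm, Fance and Pms2) depended on the scaling of the libraries.

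**Figure D3:**
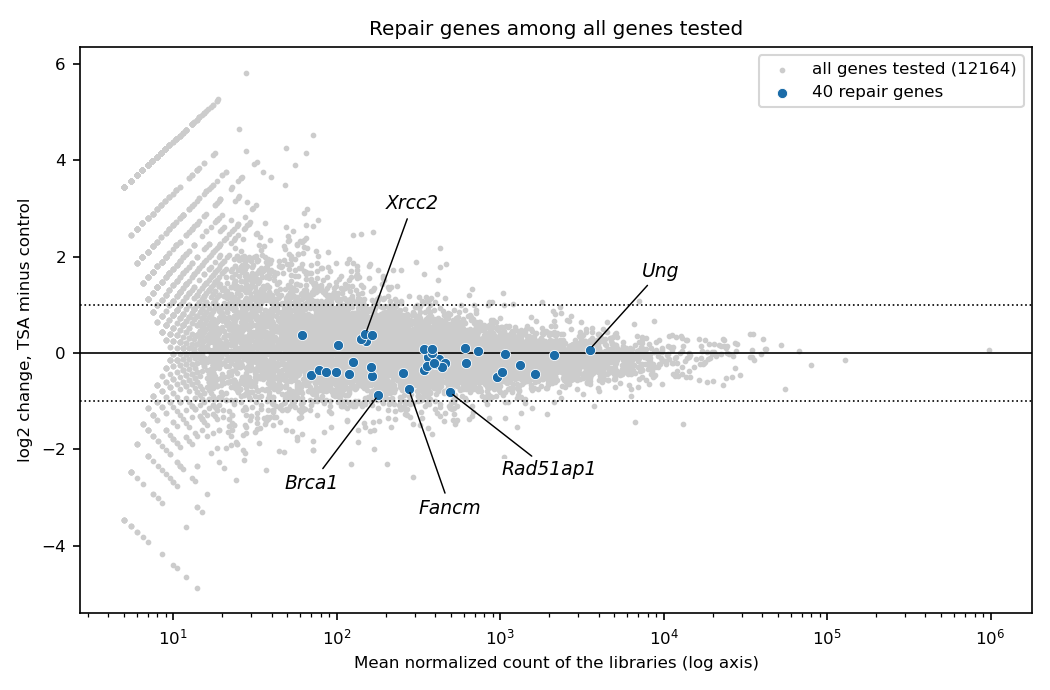
Change of all 12164 genes tested (grey points) and of the 40 repair genes (blue points) against the mean normalized count of the libraries (x axis, log scale), with dotted lines at 2-fold. The repair genes lie inside the cloud, within the dotted lines, and 28 of the 40 lie below 0, of which Parp1, Atm and Fance lie above 0 with total-read scaling. Of all 12164 genes tested, 5910 lie below 0, and of the 9399 whose normalized counts averaged 50 or more, 5131 do.

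The position of the genes in the GENCODE M21 annotation of GRCm38, the assembly that mm10 names, was looked up by symbol. All 40 are protein-coding genes, spread over 15 chromosomes. Brca1 lies on chromosome 11 from 101488764 to 101551955, Rad51ap1 on chromosome 6 from 126923050 to 126939587, Fancm on chromosome 12 from 65075603 to 65132058 and Xrcc2 on chromosome 5 from 25689812 to 25705825. The library kit reads the end of each transcript next to the poly(A) tail, so a read falls near the 3′ end of the gene whatever the length of its transcript. For 10 of the 40 genes, the last 500 bases of an annotated coding transcript overlap exons of another gene, and whether the counting used strand is not given in the sources used here. Among the 30 genes without such an overlap, 13 fell and 2 rose.

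A further 100 repair genes outside the 40 were listed, of which 98 were in the tables and 95 were tested. Of these, 44 fell (46.3%) and 8 rose (8.42%), with a median log2 change of -0.18, beside 42.5%, 7.5% and -0.21 for the 40 genes. Like the 40 genes, this list was chosen with earlier results of these data known. In damage signalling 13 of 20 fell, in homologous recombination 12 of 24, in the Fanconi group 3 of 6, in end joining 3 of 9 and in mismatch repair 2 of 6. In nucleotide excision repair, which removes bulky lesions, 6 of 14 fell and 3 rose, and in base excision repair 5 of 16 fell. The list had 3 genes past 2-fold: Faap100 and Clspn, lower as given above, and Polm, a polymerase of end joining, which rose from 73 to 160 reads, a log2 change of 1.11 (0.71 to 1.54). Faap100 and Clspn were no longer past 2-fold with total-read scaling. Lig1, which joins nicks left by replication and repair, had the most reads of the list and fell from 11842 to 7669, a log2 change of -0.64 (-0.68 to -0.599).

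Cell cycle genes were lower in the TSA library. Of 22 S-phase genes, 19 fell, with a median log2 change of -0.26, and of 20 G2/M genes all 20 fell, with a median of -1.23. The summed TSA to control ratio of normalized counts was 0.812 for the S-phase list and 0.481 for the G2/M list, against 0.748 for homologous recombination, 0.795 for end processing, 0.890 for the damage kinases, 0.895 for the Fanconi genes, 0.985 for end joining and 0.984 for the mismatch, base excision and single-strand break repair genes among the 40. Over all genes this ratio was 0.952, so the values for end joining and for mismatch, base excision and single-strand break repair lay above it. Mcm7 and Top2a had the most reads of the lists, with log2 changes of -0.32 and -0.90. Past 2-fold were Rrm2 in S phase and Cenpf, Hmmr, Birc5, Kif11, Nusap1, Bub1, Tpx2, Ube2c, Cenpe, Cdc20, Plk1 and Mki67 in G2/M. The median of the 40 repair genes, -0.21, lay nearer to that of the S-phase genes than to that of the G2/M genes. The part that the share of cycling cells has in the values of the repair genes was not tested.

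**Figure D4:**
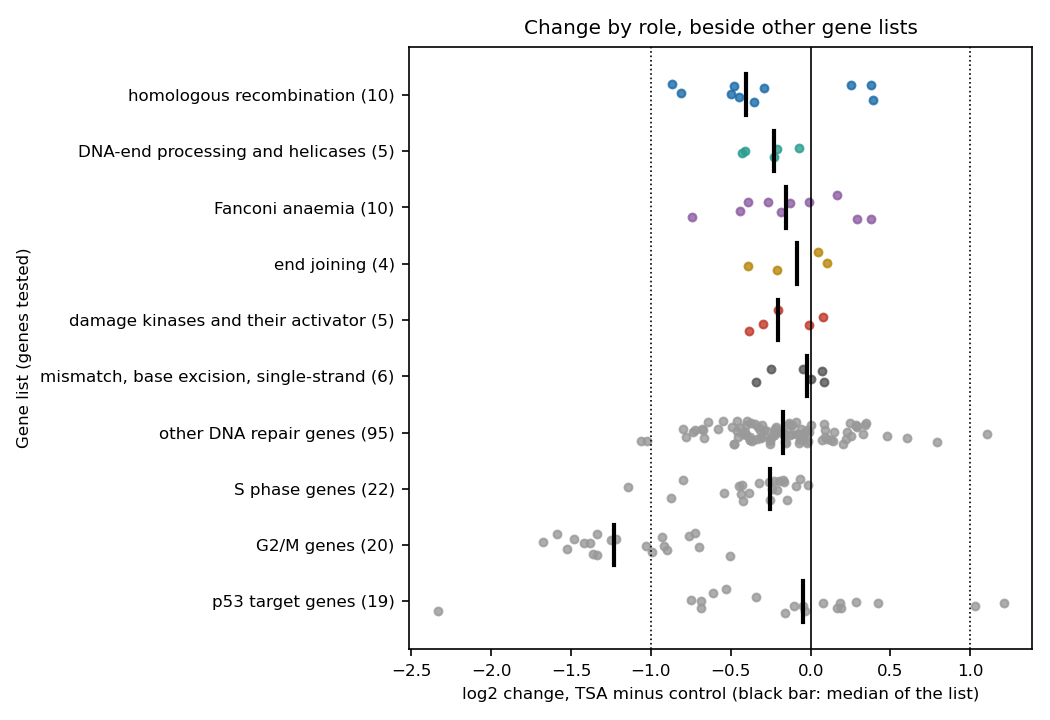
Change (x axis, log2, TSA minus control) of each gene tested, by role of the 40 repair genes (coloured points) and in 4 other gene lists (grey points), with the median of each list as a black bar and dotted lines at 2-fold. The medians run from -0.40 for homologous recombination to -0.025 for mismatch, base excision and single-strand break repair, and that of the G2/M genes is -1.23.

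Markers of T cells were abundant in both libraries, with 13992 control and 14623 TSA reads over 6 markers. Cd4 had 2434 and 2548 reads. By the interval Lck and Cd3e fell, and Cd3d, Cd3g and Cd28 rose. Markers of other cell types were scarce. The summed reads of the control and TSA library were 80 and 87 for CD8 T cells, 12 and 15 for B cells, 60 and 44 for myeloid cells, 6 and 44 for dendritic cells, 30 and 41 for NK cells, and 39 and 41 for erythroid cells, with Pax5 and Klrb1c at 0 in both. Of the dendritic markers, Flt3 had 0 and 33 reads, Zbtb46 had 2 and 11, and Itgax had 4 and 0. Cd79b, a B cell gene, had 11 and 4 reads. Their part in the values of the repair genes was not tested.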

How the data were processed

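Total RNA of 1 control and 1 TSA culture was made into QuantSeq 3′ libraries and sequenced as single-end reads. The submitters' processing notes name Bowtie2, bedtools and mm10, and the authors used ExDEGA; versions, annotation and scaling are not given in the sources used here. The authors deposited log2 values, 1 per gene and library, which were found to be log2 of a normalized count plus 1. Taken off the log scale, 99.7% of control and 99.5% of TSA values of 1 to 300 reads were whole reads within 0.1, at 1.005 and 0.995 normalized counts per read. Above that range, rounding to 3 decimals leaves the reads of a repair gene uncertain by at most 2.

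Changes are differences of the deposited values. The 12164 genes that reached 10 reads in either library were tested. With 1 library per condition no p-value was computed. Exact Clopper-Pearson 95% intervals of the reads gave the calls, beside the 2-fold threshold of the study's methods. Intervals and the floor of 3 reads (0.277 CPM in the control and 0.288 in the TSA library) cover counting error only, since PCR copies could not be told apart. The members and lists were chosen with earlier results of these data known. All 40 genes are named, with the list genes past 2-fold and the most-read gene of each list. Complexes were arranged, and the promoters to print were chosen, after the values were seen. Shld1, Shld2 and Trac did not match a symbol. The steps were tested on simulated data. Alternatives concerned scaling, pseudocount, filter, threshold and interval. Work was done in Python 3.11.15 with scipy 1.17.1, numpy 2.4.6, pandas 2.3.3 and, for plots, matplotlib 3.10.9.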

Additional observations from a re-analysis of the deposited data

How the results depend on the processing

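No paired analysis was possible because each condition had a lone library, and leaving out a replicate was likewise not an option. With total-read scaling, which raised the median of all genes by 0.070, 11 of the 40 genes fell and 5 rose (Fancc, Xrcc6, Nbn, Fanci, Blm and Chek1 lost the call, Xrcc5 and Fancg gained it), beside 21.6% and 33.7% of all genes, and 0 of the other repair genes were past 2-fold on the lower side. With upper-quartile scaling 13 fell and 3 rose, Xrcc6, Nbn, Blm and Chek1 losing the call, beside 23.9% and 31.1% of all genes, and 1 other repair gene was past 2-fold on the lower side. With a 99% interval 11 fell and 0 rose, beside 22.4% and 22.2% of all genes. At 1.5-fold, 3 of the 40 genes (Brca1, Rad51ap1 and Fancm) and 10 other repair genes were lower, and 3 other repair genes higher. With the whole interval required beyond 2-fold, 0 other repair genes passed on either side. Without a filter, 3 other repair genes were higher by 2-fold. The median of the 40 genes stayed negative, from -0.21 to -0.14, under the scalings, pseudocounts and filters tried, and no gene that fell or rose changed direction under the scalings and pseudocounts tried. For the scalings this was fixed in advance. They moved changes by about 0.070 at most, less than the median, the smallest fall (-0.202) or the smallest rise (0.073). Depth limits the genes with few reads: 4 of the 40 had under 100 reads in both libraries, none of which passed the interval.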

Other observations

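Genes that p53 switches on after DNA damage were listed as a readout of damage signalling. Of 19 tested, 7 fell (36.8%) and 3 rose (15.8%), with a median log2 change of -0.048. The genes that fell were Cdkn1a, Ccng1, Mdm2, Aen, Bax, Phlda3 and Sesn2, and those that rose were Trp53inp1, Btg2 and Sesn1. Cdkn1a, the inhibitor of cyclin-dependent kinases and the gene of the list with the most reads in the control library, fell from 1388 to 833 reads, a log2 change of -0.75 (95% counting interval -0.88 to -0.63). Mdm2, the ligase that degrades p53, had 1146 control and 1036 TSA reads, a log2 change of -0.16 (-0.28 to -0.037), and this call is lost with total-read or upper-quartile scaling, which raise every change by 0.070 and 0.043. Past 2-fold were Sesn2, with 19 and 3 reads and a log2 change of -2.34 (-5.08 to -0.91), Sesn1, which rose from 60 to 125 reads, a log2 change of 1.03 (0.589 to 1.51), and Gadd45a, with 5 and 13 reads and an interval that included no change. Of all genes tested, 28.0% fell and 28.1% rose.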
